A study of Homo sapiens with 12 samples.

Results

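The transcriptional coactivators YAP1 and WWTR1 (also called TAZ) and 8 of their known target genes were followed through the knockdown and the overexpression of GALNT7 in prostate cancer cells. The 2 coactivators are called the factors below. These 10 genes, of 59424 in the deposited tables, were chosen by name, with their behaviour in these same libraries already known, to see whether THBS1 moves with the other targets. Their differences between the groups are therefore given as a description and without p-values. Whether a member passed the threshold of the fit over all genes is part of that description and no support for a difference. CWR22RV1 is a human prostate cancer cell line, and it was transduced with lentivirus for a control shRNA (the shControl group) or for shRNA-mediated depletion of GALNT7 (the GALNT7 KD group). DU145 is another human prostate cancer line, and it received a Lenti-ORF negative control (the OE control group) or the GALNT7 reading frame (the GALNT7 OE group). GALNT7 is an enzyme of mucin type O-glycosylation, which adds sugars to serine and threonine residues of proteins. All 4 groups were stable lines made by lentiviral transduction, and each had 3 libraries labelled as biological replicates, or 12 in all. RNA-sequencing was used to find genes that respond to the level of GALNT7. The sources do not say whether the replicates came from separately made lines or separate cultures, so p-values measure only the spread between these libraries, which may be technical.

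YAP1 and WWTR1 are coactivators that carry the output of the Hippo pathway. When the Hippo kinases are active, LATS kinases phosphorylate YAP1 and WWTR1 and hold them in the cytoplasm. When the kinases are quiet, both proteins enter the nucleus and bind TEAD transcription factors at genes that serve growth, adhesion and the extracellular matrix. The targets that are followed here are secreted matricellular proteins (CYR61, CTGF and THBS1), a nuclear cofactor and a cell surface receptor (ANKRD1 and AXL), and proteins that feed back on the pathway (AMOTL2, AJUBA and LATS2). CYR61 and CTGF are now named CCN1 and CCN2.

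The promoters of CTGF, THBS1 and YAP1 are shown because CTGF and THBS1 are the members that differed most between shControl and GALNT7 KD, in opposite directions, and YAP1 is the factor itself. Each window is the 250 bases before the RefSeq start on GRCh38.p14, written 5′ to 3′ on the strand of the gene, with capitals at GGAATG, the core letters bound by TEAD factors. CTGF lies on the minus strand with its window at chr6:131951373-131951622, THBS1 on the plus strand at chr15:39580829-39581078, and YAP1 on the plus strand at chr11:102110197-102110446.
CTGF: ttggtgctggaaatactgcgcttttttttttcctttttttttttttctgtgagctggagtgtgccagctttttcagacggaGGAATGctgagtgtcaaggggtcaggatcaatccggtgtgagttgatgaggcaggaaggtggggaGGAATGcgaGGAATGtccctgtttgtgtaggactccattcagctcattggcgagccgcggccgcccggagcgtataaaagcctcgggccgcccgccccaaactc
THBS1: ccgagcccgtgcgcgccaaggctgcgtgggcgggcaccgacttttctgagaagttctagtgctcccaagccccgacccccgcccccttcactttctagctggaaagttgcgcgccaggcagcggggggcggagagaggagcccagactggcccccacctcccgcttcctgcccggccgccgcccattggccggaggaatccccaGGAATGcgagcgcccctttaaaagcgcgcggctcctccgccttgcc
YAP1: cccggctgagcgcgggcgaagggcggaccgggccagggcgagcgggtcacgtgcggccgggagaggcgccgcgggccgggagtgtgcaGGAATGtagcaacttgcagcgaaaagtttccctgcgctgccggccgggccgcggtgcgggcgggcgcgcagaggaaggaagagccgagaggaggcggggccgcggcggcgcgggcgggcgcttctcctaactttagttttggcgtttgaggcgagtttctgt
CTGF held the letters 3 times, 164, 99 and 90 bases before the start. THBS1 held them 1 time, 41 bases before the start, and YAP1 1 time at 157 bases. A window with at least 1 match on either strand is common, since 11.9% of 35116 windows of this length had one, whereas 0.0826% had 3 or more. RefSeq windows were found for 9 of the 10 members, with CYR61 as the exception, and 7 of the 9 held the letters in at least 1 of their windows. ANKRD1 had 2 matches, at 215 and 123 bases. AXL, AMOTL2 and AJUBA each had 1 match, in the second of their 2 windows, while WWTR1 and LATS2 had none. TGANTCA, the letters of AP-1 factors, occurred in 6.57% of windows and among the members in that of ANKRD1 alone. GTAAACA, the letters of forkhead factors, occurred in 2.98% of windows and among the members in 1 window of WWTR1. The CArG box bound by SRF occurred in 1.16% of windows and in no window of a member. These matches describe letters in a short window and are not binding sites found in these cells.

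Between 18364512 and 24356910 reads per library were recovered, with the DU145 libraries at 21628718 or more. GALNT7 was measured at 862, 1042 and 1093 normalised counts in shControl and 481, 501 and 399.7 in GALNT7 KD, a log2 fold change of -1.11 (SE 0.13, limma adjusted p = 0.0051). It was at 1051, 928 and 913 in OE control and 1988, 2221 and 2334 in GALNT7 OE, a log2 fold change of 1.18 (SE 0.086, limma adjusted p = 8.0e-05). The epithelial markers EPCAM, KRT8, KRT18 and CDH1 were expressed in all 4 groups, with summed normalised counts of 20827 to 25908. The prostate markers KLK3, TMPRSS2 and FOLH1 had means under 5 in DU145 cells, and were at 392 ± 46.3, 261 ± 41.7 and 3119 ± 158 in shControl cells (SD, n = 3). The immune markers PTPRC and CD3E had means under 5 in every group. The third gene of that list, CD68, was at 113 ± 8.84 in shControl and 152 ± 31.8 in GALNT7 KD (SD, n = 3) and did not pass the test there. In DU145 cells CD68 fell from 2675 ± 89.2 in OE control to 1035 ± 73.3 in GALNT7 OE (SD, n = 3), a log2 fold change of -1.37 (SE 0.068, limma adjusted p = 1.5e-05).

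The members were expressed at very different levels in the control cells of the 2 lines. Levels are given as RPKM, the reads per kilobase of exon scaled to the depth of the library, so that genes of different length can be set side by side. In shControl cells the order was YAP1 at 6.65 ± 0.12, THBS1 at 4.90 ± 0.36, AJUBA at 4.70 ± 0.78, WWTR1 at 4.28 ± 0.25 and CYR61 at 3.91 ± 0.33 (SD, n = 3). Below these came AMOTL2 at 2.12 ± 0.15, CTGF at 1.26 ± 0.039, LATS2 at 1.23 ± 0.40, ANKRD1 at 0.287 ± 0.065 and AXL at 0.0241 ± 0.034 (SD, n = 3). The libraries of THBS1, AJUBA, WWTR1 and CYR61 overlapped each with the next in this order, as did those of CTGF and LATS2, and the remaining neighbours were separate. In OE control cells the order was led by CYR61 at 343 ± 1.93, AXL at 146 ± 0.53, AMOTL2 at 80.9 ± 2.23, CTGF at 59.4 ± 1.85 and YAP1 at 32.3 ± 1.78 (SD, n = 3). THBS1 at 25.9 ± 2.43, ANKRD1 at 21.3 ± 0.34, LATS2 at 18.9 ± 1.14, WWTR1 at 14.5 ± 0.35 and AJUBA at 13.9 ± 0.89 followed (SD, n = 3). Only WWTR1 and AJUBA overlapped as neighbours here.

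All 10 members had a higher level per length in OE control than in shControl cells, but by unequal amounts. The ratio of the means was 87.8 for CYR61, 74.1 for ANKRD1, 47.2 for CTGF, 38.2 for AMOTL2 and 15.4 for LATS2. It was 5.28 for THBS1, 4.86 for YAP1, 3.40 for WWTR1 and 2.95 for AJUBA. THBS1 thus sat with the factors rather than with the other matricellular genes in the size of its ratio. AXL, a receptor tyrosine kinase, had 8 reads in all 3 shControl libraries together and 50551 in the OE control libraries. Each line has its own control construct and its own table with separate scaling, so the line, the construct and the scaling cannot be told apart in these ratios, and no test was made between them.

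**Figure D1:**
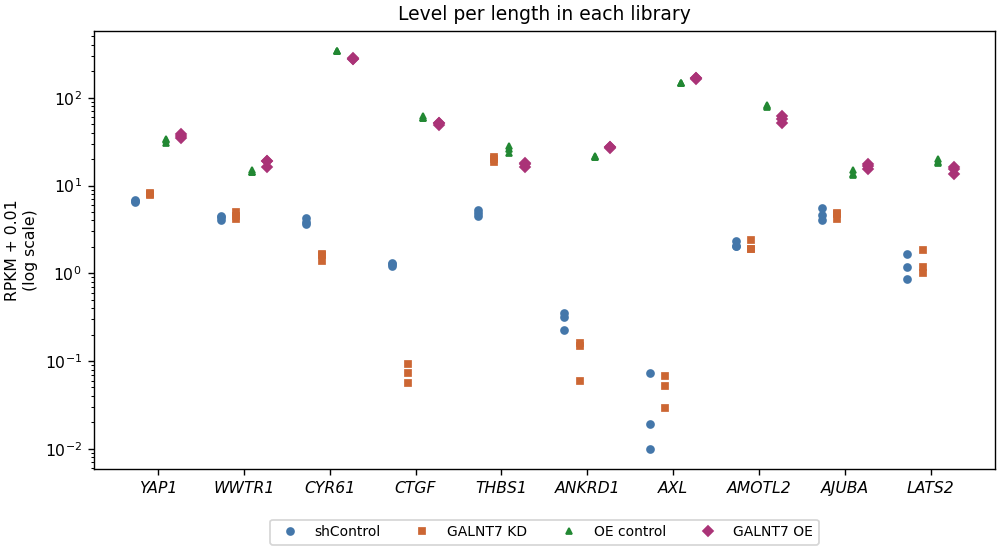
RPKM (reads per kilobase of exon scaled to library depth) plus 0.01, on a log scale, for each member in each of the 12 libraries, with 1 marker shape per group. THBS1 in GALNT7 KD cells reached 18.3 to 21.1, close to the 16.4 to 18.0 of GALNT7 OE cells. CYR61, CTGF, ANKRD1, AXL, AMOTL2 and LATS2 stayed far below their DU145 levels in CWR22RV1 cells.

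Knockdown of GALNT7 went with more THBS1 and less CYR61 and CTGF in CWR22RV1 cells, while the factors and the feedback genes lay near their control levels. THBS1 was 4.02-fold higher, CYR61 2.55-fold lower and CTGF 19.4-fold lower by reads. Of the 9 members with enough counts, 3 passed the limma threshold, 1 higher and 2 lower, and 9.06% of all 17906 genes tested did so (5.28% higher and 3.79% lower). The groups did not overlap for 5 of the 9, 2 higher and 3 lower, against 32.5% of all genes tested (16.9% higher and 15.6% lower). Rescaling each library to the 75th percentile of its genes changed the split of all calls from 945 higher and 678 lower to 656 and 1231.

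The factors were taken first, with gene positions from GENCODE 29 on GRCh38. YAP1 (ENSG00000137693, chr11:102110461-102233423, plus strand) was at 826, 839 and 809 normalised counts in shControl and at 966, 980.3 and 1026 in GALNT7 KD. The GALNT7 KD libraries were all above the shControl libraries, by a log2 fold change of 0.26 (SE 0.064), which did not pass the threshold in the fit across all genes. WWTR1 (ENSG00000018408, chr3:149517235-149736714, minus strand) was at 719.6, 744 and 664 in shControl and at 684, 819 and 735 in GALNT7 KD, a log2 fold change of 0.071 (SE 0.094), and the groups overlapped. The ratio of YAP1 to WWTR1 per length was 1.51 to 1.63 in shControl and 1.60 to 1.89 in GALNT7 KD, with 1 GALNT7 KD library inside the shControl range.

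The matricellular targets are secreted proteins that signal from the matrix through integrins and other receptors. CYR61 (ENSG00000142871, chr1:85580761-85583962, plus strand) was at 184, 177 and 207 normalised counts in shControl and at 77.3, 80.0 and 65.5 in GALNT7 KD, a log2 fold change of -1.34 (SE 0.14). CTGF (ENSG00000118523, chr6:131948176-131951373, minus strand) was at 58.8, 59.2 and 55.9 in shControl and at 3.87, 2.13 and 2.89 in GALNT7 KD, a log2 fold change of -3.92 (SE 0.29). Every GALNT7 KD library was below every shControl library for both genes. The CTGF values rest on 191 reads in the shControl libraries and 9 in the GALNT7 KD libraries, for which the ratio by reads was 19.4 with a 95% counting interval of 10.001 to 43.1. This interval covers counting error alone. A log2 fold change as low as that of CTGF was found in 0.106% of the genes tested.

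THBS1, an adhesive glycoprotein best known as an inhibitor of angiogenesis and an activator of latent TGF-beta, went the other way. The gene (ENSG00000137801, chr15:39581079-39599466, plus strand) was at 819.5, 886 and 947 normalised counts in shControl and at 3582, 3793 and 3293 in GALNT7 KD, a log2 fold change of 2.01 (SE 0.081). The lowest GALNT7 KD library was well above the highest shControl library. A log2 fold change as high was found in 0.693% of the genes tested. With this THBS1 moved from the second to the first place among the members, at 19.8 ± 1.42 RPKM (SD, n = 3), ahead of YAP1. FSIP1 overlaps THBS1 on the opposite strand, with a range of 10.3 to 31.1 in the shControl libraries and of 9.60 to 434 in the GALNT7 KD libraries.

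Ratios within a library do not depend on how the libraries were scaled. The ratio of THBS1 to CYR61 per length was 1.19, 1.34 and 1.23 in the shControl libraries and 12.4, 12.7 and 13.5 in the GALNT7 KD libraries. The ratio of THBS1 to CTGF was 3.56, 3.82 and 4.33 in shControl and 237, 454 and 291 in GALNT7 KD. Both ratios were higher in each GALNT7 KD library than in any shControl library. CYR61 and CTGF also parted from each other, with a ratio of 2.84 to 3.53 in shControl and 19.1 to 35.7 in GALNT7 KD. The ratios to CTGF rest on 2 to 4 CTGF reads in each GALNT7 KD library, so their size there is imprecise.

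ANKRD1, a nuclear ankyrin repeat protein, and AXL were near the limit of detection in CWR22RV1 cells. ANKRD1 (ENSG00000148677, chr10:90912096-90921276, minus strand) was at 8.40, 13.3 and 11.9 normalised counts in shControl and at 1.93, 5.33 and 5.78 in GALNT7 KD, a log2 fold change of -1.26 (SE 0.47) that did not pass the threshold. All GALNT7 KD libraries lay below the shControl libraries, on 37 against 13 reads, a ratio of 2.60 with a 95% counting interval of 1.35 to 5.33. AXL (ENSG00000167601, chr19:41219203-41261766, plus strand) was at 0.933, 0 and 6.41 in shControl and at 5.80, 4.27 and 1.93 in GALNT7 KD, or 8 against 12 reads, and was too low to enter the fit. A difference in AXL was not detectable at this depth.

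AMOTL2, AJUBA and LATS2 restrain or tune the pathway: AMOTL2 is an angiomotin that can tether YAP1 at junctions, AJUBA a LIM protein that can hold back the LATS kinases, and LATS2 one of those kinases. AMOTL2 (ENSG00000114019, chr3:134355874-134375479, minus strand) was at 239, 271 and 239.9 normalised counts in shControl and at 225, 221 and 281 in GALNT7 KD, a log2 fold change of -0.05 (SE 0.13). AJUBA (ENSG00000129474, chr14:22971174-22982642, minus strand) was at 539, 471 and 652 against 576, 489.6 and 556, a log2 fold change of -0.03 (SE 0.14). LATS2 (ENSG00000150457, chr13:20973032-21061547, minus strand) was at 93.3, 181 and 130.0 against 128, 108 and 198, a log2 fold change of 0.10 (SE 0.31). The groups overlapped for all 3 genes, and LATS2 varied most between replicates. AJUBA shares its strand and part of its span with AL132780.3 (512 to 661 in the shControl libraries, 455 to 586 in the GALNT7 KD libraries), so how reads were divided between the pair is uncertain.

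**Figure D2:**
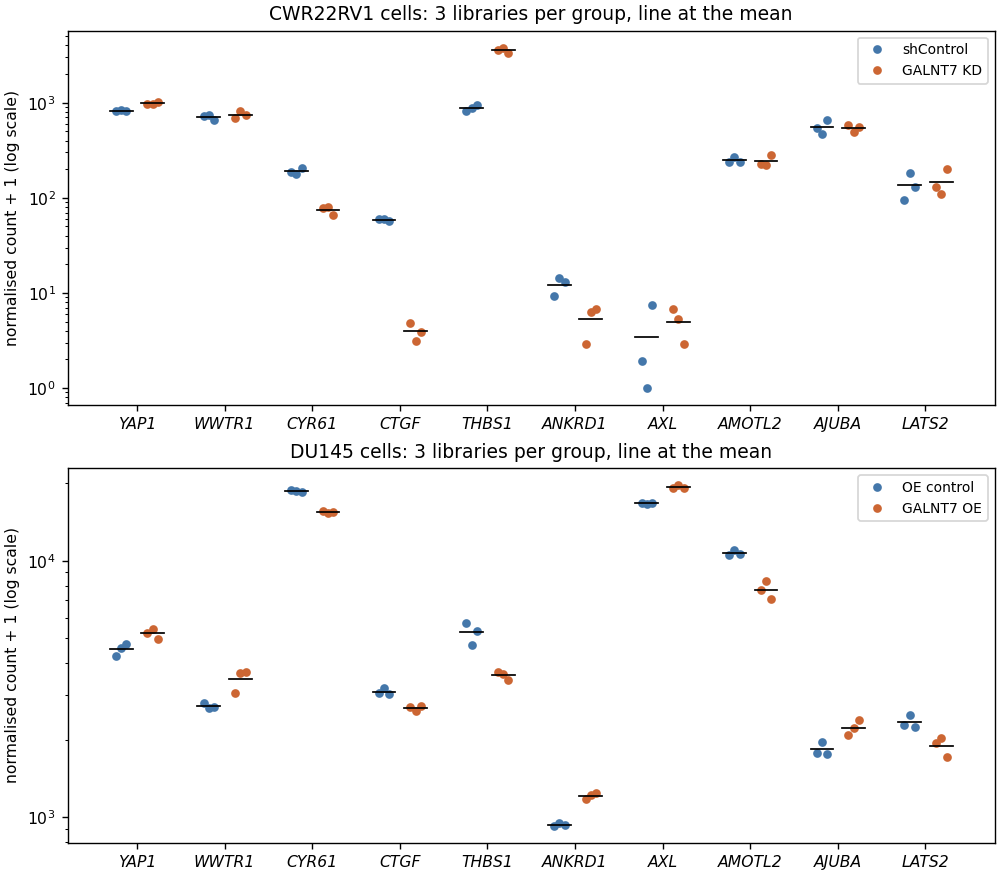
Normalised count plus 1 on a log scale for each member in CWR22RV1 cells (top) and DU145 cells (bottom), with 1 point per library, 3 per group, and a line at the group mean. In CWR22RV1 cells THBS1 is the only member far above its control in GALNT7 KD and CTGF the member farthest below, and in DU145 cells all 10 members are separated by small steps.

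Overexpression of GALNT7 in DU145 cells went with small differences in every member, 5 higher and 5 lower. The factors YAP1 and WWTR1 were higher together with ANKRD1, AXL and AJUBA, and THBS1, CYR61, CTGF, AMOTL2 and LATS2 were lower, by at most 1.47-fold in THBS1. All 10 members passed the limma threshold and had groups that did not overlap, in a comparison in which 43.5% of 18705 genes were called (22.9% higher and 20.5% lower) and 55.3% did not overlap (28.2% higher and 27.1% lower). The median log2 fold change over all genes tested was -0.01, and -0.14 after rescaling to the 75th percentile. That rescaling changed the split of all calls from 4290 higher and 3842 lower to 3095 and 5052. It also left YAP1, WWTR1, AXL and AJUBA short of the threshold, with 1 member higher and 5 lower, although no direction was turned.

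YAP1 was at 4246, 4579 and 4722 normalised counts in OE control and at 5235, 5404 and 4969 in GALNT7 OE, a log2 fold change of 0.20 (SE 0.056). WWTR1 was at 2792, 2662 and 2678 against 3047, 3634 and 3681, a log2 fold change of 0.34 (SE 0.079). Both factors were thus higher in each GALNT7 OE library, and 75th percentile rescaling reduced the log2 fold changes to 0.07 for YAP1 and 0.21 for WWTR1.

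Of the matricellular targets, CYR61 was at 18819, 18688 and 18596 in OE control and at 15573, 15311 and 15444 in GALNT7 OE, a log2 fold change of -0.28 (SE 0.026). CTGF was at 3049, 3183 and 3016 against 2679, 2583 and 2711, a log2 fold change of -0.21 (SE 0.047). THBS1 was at 5714, 4710.4 and 5334 against 3694, 3619.7 and 3413, a log2 fold change of -0.55 (SE 0.076). The 3 secreted targets were lower side by side here, with THBS1 lowest relative to its control. A log2 fold change as low as that of THBS1 was found in 21.9% of the genes tested and one as low as that of CTGF in 37.4%. The ratio of THBS1 to CYR61 per length was 0.0676 to 0.0814 in OE control and 0.0592 to 0.0636 in GALNT7 OE, and that of CYR61 to CTGF 5.59 to 5.88 and 5.43 to 5.65. The THBS1 ratios were separate between the groups, while those of CYR61 to CTGF overlapped.

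ANKRD1 and AXL, both abundant in this line, were higher. ANKRD1 was at 926, 948 and 927 normalised counts in OE control and at 1178, 1219.8 and 1239 in GALNT7 OE, a log2 fold change of 0.38 (SE 0.056). AXL was at 16788, 16638 and 16820.0 against 19241, 19701 and 19156, a log2 fold change of 0.21 (SE 0.027). The spread within each group was small for both, and the ratio of AXL to YAP1 per length was 4.35 to 4.83 in OE control and 4.45 to 4.71 in GALNT7 OE, with overlap between the groups.

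Of the genes that feed back on the pathway, AMOTL2 was at 10547, 11046 and 10626 in OE control and at 7680.2, 8296 and 7066 in GALNT7 OE, a log2 fold change of -0.49 (SE 0.061). LATS2 was at 2283, 2497 and 2247 against 1939, 2034 and 1720.2, a log2 fold change of -0.31 (SE 0.079). AJUBA was at 1783, 1968 and 1761 against 2093, 2218 and 2385, a log2 fold change of 0.28 (SE 0.072). The 2 inhibitors were lower and the LIM protein higher, without overlap between the groups, and AL132780.3 over AJUBA was at 236 to 261 in OE control and 241 to 308 in GALNT7 OE.

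**Figure D3:**
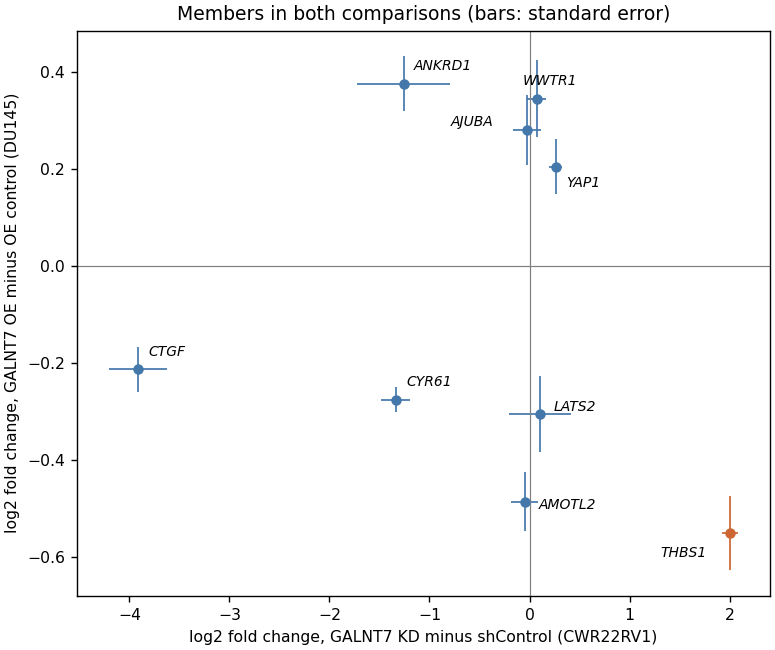
Log2 fold change of the 9 members tested in both lines, for GALNT7 KD over shControl on the horizontal axis and GALNT7 OE over OE control on the vertical axis, with bars for the standard error and the axes on different scales. THBS1 stands alone at the lower right (2.01 and -0.55), and CTGF (-3.92 and -0.21) and CYR61 (-1.34 and -0.28) are lower in both.

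THBS1 therefore did not move with CYR61 and CTGF in the knockdown and lay on the same side as both in the overexpression. CYR61 and CTGF were lower in both comparisons, whether GALNT7 was reduced or raised, whereas THBS1 was higher in the first and lower in the second. ANKRD1 was lower in the first, on few reads, and higher in the second. YAP1 was higher in both, by 0.26 and 0.20 on the log2 scale, and did not pass the threshold in the first. Under other settings with all libraries kept, these values were as low as 0.18 in the knockdown and 0.07 in the overexpression. The 2 comparisons share no libraries, and no test of the difference between them was made, since the lines differ and the tables were scaled separately.

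The genes whose 12 libraries followed THBS1 most closely were sought among the 11815 genes that reached a mean of 50 normalised counts in each table. Likeness was the Euclidean distance between log2 values centred on the control mean of each line. The larger change of THBS1 in the knockdown weighs most in this distance, so a near gene need not follow THBS1 in DU145 cells. STC1, a secreted glycoprotein hormone, was nearest at a distance of 0.427, with log2 fold changes of 2.12 and -0.44 in the 2 comparisons. SCARA5, a scavenger receptor, was at 0.764 (1.67 and -0.75), and PAM, an enzyme that amidates peptides, at 0.824 (1.96 and -0.51). TMEM246 was at 0.849 (1.83 and -0.16) and HMOX1, the haem-degrading enzyme, at 1.01 (1.76 and -0.07). These 5 genes were picked by this likeness, so their values describe it and are not tested. Of the members that could be ranked, YAP1 was at place 1955, LATS2 at 3091, AMOTL2 at 4076, WWTR1 at 5243, AJUBA at 6470 and CYR61 at 11618, or percentile 98.3. CTGF, ANKRD1 and AXL were too low in CWR22RV1 cells to be ranked. By Pearson correlation instead of distance, 1 of the same 5 genes was among the nearest 5.

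**Figure D4:**
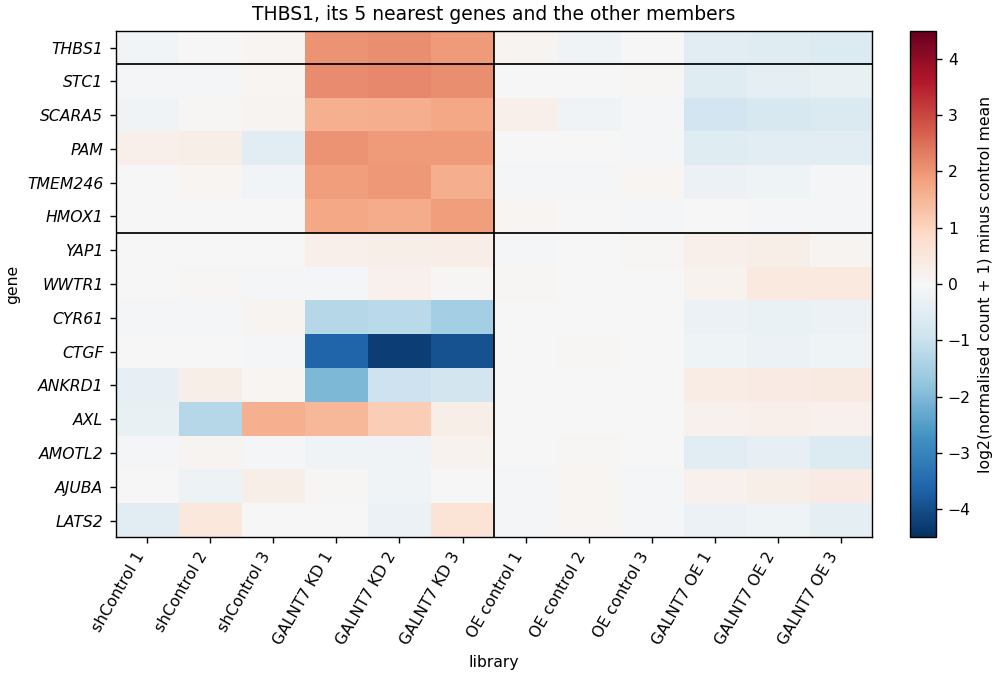
Log2(normalised count + 1) minus the control mean of the same line, for THBS1, its 5 nearest genes and the other 9 members (rows) in the 12 libraries (columns). The upper block is red in the 3 GALNT7 KD libraries, CTGF, CYR61 and ANKRD1 are blue there, and the colours in DU145 cells are pale because the differences were at most 0.75 for the mean of any gene shown.

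Other genes of the pathway were taken from 6 lists with 73 genes, of which 65 had enough counts in each line. They were not all the same genes, since WISP2 and CD36 were tested in DU145 cells alone and VGLL3 and COMP in CWR22RV1 cells alone. In GALNT7 KD cells 4 of the 65 tested there rose and 3 fell, with a median log2 fold change of 0.04 over the lists and -0.01 over all genes tested. In GALNT7 OE cells 9 of the 65 tested there rose and 30 fell, with a median of -0.21 against -0.01. Of all genes tested, 9.06% were called in the first comparison and 43.5% in the second.

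The 20 regulators of the Hippo pathway had a median log2 fold change of 0.11 in GALNT7 KD cells and 0.05 in GALNT7 OE cells. MAP4K4, a kinase that activates LATS, rose in GALNT7 KD cells by 0.26 on the log2 scale (SE 0.058, limma adjusted p = 0.039). WWC2, a KIBRA family scaffold, fell by 1.60 (SE 0.28, limma adjusted p = 0.020), from 55.1 ± 14.0 to 17.4 ± 3.92 normalised counts (SD, n = 3). The other 18 did not pass the test, the LATS1, STK3, STK4, SAV1, MOB1A and NF2 core among them. In GALNT7 OE cells 2 of the 20 rose and 4 fell, and MAP4K4 and WWC2 were called in the opposite directions. MAP4K4 fell by 0.58 (SE 0.12, limma adjusted p = 0.0076) and WWC2 rose by 0.47 (SE 0.072, limma adjusted p = 0.0020). WWC1, the KIBRA scaffold itself, fell by 0.61 (SE 0.065, limma adjusted p = 0.00043), and TAOK2, a kinase upstream of the pathway, by 0.52 (SE 0.070, limma adjusted p = 0.0012).

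The TEAD factors bring YAP1 and WWTR1 to DNA, and VGLL4 competes with YAP1 for them. The median log2 fold change of the list was 0.04 in GALNT7 KD cells and 0.30 in GALNT7 OE cells. Of 6 tested genes, 0 passed the limma test in GALNT7 KD cells (2 at an unadjusted p under 0.05, 0 in edgeR and 0 in DESeq2). The groups did not overlap for 2 of the 6. Of all 17906 genes tested, 4675 had an unadjusted limma p under 0.05 and 32.5% had groups that did not overlap. Those 2 list genes were TEAD4, at 507 ± 23.3 in shControl and 407 ± 57.4 in GALNT7 KD, and VGLL4, at 1552 ± 79.3 and 1343 ± 100.03 normalised counts (SD, n = 3). With GALNT7 overexpressed, 4 of 5 were called. TEAD1 rose by 0.30 (SE 0.071, limma adjusted p = 0.014) and TEAD4 by 0.70 (SE 0.095, limma adjusted p = 0.0012), while TEAD3 fell by 0.56 (SE 0.086, limma adjusted p = 0.0020) and VGLL4 by 0.84 (SE 0.072, limma adjusted p = 0.00015). The call of TEAD1 was lost after 75th percentile rescaling, with a log2 fold change of 0.16 and a limma adjusted p of 0.093.

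A further list held 16 other genes described as YAP/TAZ targets, 15 of them tested in each line, with a median log2 fold change of 0.11 in GALNT7 KD and -0.39 in GALNT7 OE cells. After knockdown 3 rose and 0 fell in limma. IGFBP3, which binds insulin-like growth factors, went from 24104 to 31019 normalised counts, a log2 fold change of 0.36 (SE 0.029, limma adjusted p = 0.0015). MYOF, a membrane repair protein, rose by 0.74 (SE 0.14, limma adjusted p = 0.025) and RBMS3, an RNA-binding protein, by 1.57 (SE 0.24, limma adjusted p = 0.013). After overexpression 2 rose and 8 fell. F3, the tissue factor that starts coagulation, fell by 1.74 (SE 0.051, limma adjusted p = 2.9e-06), TGFB2 by 0.99 (SE 0.080, limma adjusted p = 0.00013) and NT5E, the ectoenzyme CD73, by 0.77 (SE 0.077, limma adjusted p = 0.00030). FJX1 rose by 1.17 (SE 0.076, limma adjusted p = 4.8e-05), and IGFBP3 rose here too, by 0.40 (SE 0.055, limma adjusted p = 0.0013).

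CTGF and CYR61 are also targets of SRF and its actin-sensing cofactors. Of 14 tested genes of SRF and the actin cytoskeleton, ACTB and ACTG1, the cytoplasmic actins, fell in GALNT7 KD cells by 0.31 (SE 0.057, limma adjusted p = 0.022) and 0.40 (SE 0.090, limma adjusted p = 0.041). The list had a median of -0.07 there and of -0.26 in GALNT7 OE cells, where 3 rose and 7 fell. ACTB and ACTG1 rose in the latter by 0.44 each (limma adjusted p = 4.6e-05 and 0.0012), whereas TAGLN, an actin-binding protein of contractile cells, fell by 1.08 (SE 0.14, limma adjusted p = 0.0010) and VCL, which anchors actin at adhesions, by 0.52 (SE 0.041, limma adjusted p = 0.00011). The actins are near-identical to each other and to processed pseudogenes, so the division of reads between them is uncertain.

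Other thrombospondin and CCN family genes had a median log2 fold change of -0.90 in GALNT7 KD cells and -1.29 in GALNT7 OE cells, over 4 tested in each, of which COMP was tested in the former alone and WISP2 in the latter alone. In the knockdown 0 of the 4 passed the limma test (4 at an unadjusted p under 0.05, 0 in edgeR and 0 in DESeq2). An unadjusted limma p under 0.05 was found for 4675 of all 17906 genes tested. THBS3 was at 430.1 ± 51.1 and 322 ± 62.1, THBS4 at 33.1 ± 2.41 and 16.0 ± 11.1, COMP at 12.5 ± 4.02 and 2.25 ± 2.42, and NOV at 26.1 ± 1.94 and 16.7 ± 2.17 normalised counts in shControl and GALNT7 KD (SD, n = 3). Their means were all lower in GALNT7 KD, unlike that of THBS1, but COMP, THBS4 and NOV rest on 7, 47 and 50 reads there. In the overexpression 3 of 4 fell. THBS3 fell by 0.65 (SE 0.15, limma adjusted p = 0.012), NOV, the CCN3 protein, by 1.80 (SE 0.22, limma adjusted p = 0.00068), and WISP2, the CCN5 protein, by 2.00 (SE 0.076, limma adjusted p = 6.2e-06).

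Of 6 tested receptors of THBS1, 0 passed the limma test in GALNT7 KD cells (0 at an unadjusted p under 0.05, 0 in edgeR and 0 in DESeq2), and the groups overlapped for all 6. Their median log2 fold change was 0.09 there and -0.52 in GALNT7 OE cells, where 6 of 7 fell and 0 rose. ITGB3, the integrin beta 3 chain, fell by 1.35 (SE 0.068, limma adjusted p = 1.6e-05), ITGB1 by 0.61 (SE 0.035, limma adjusted p = 2.6e-05), ITGAV by 0.52 (SE 0.093, limma adjusted p = 0.0042) and the endocytic receptor LRP1 by 0.66 (SE 0.19, limma adjusted p = 0.026). The call of LRP1 was lost without OE control replicate 2 or 3 or GALNT7 OE replicate 3, at limma adjusted p of 0.064, 0.083 and 0.060.

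**Figure D5:**
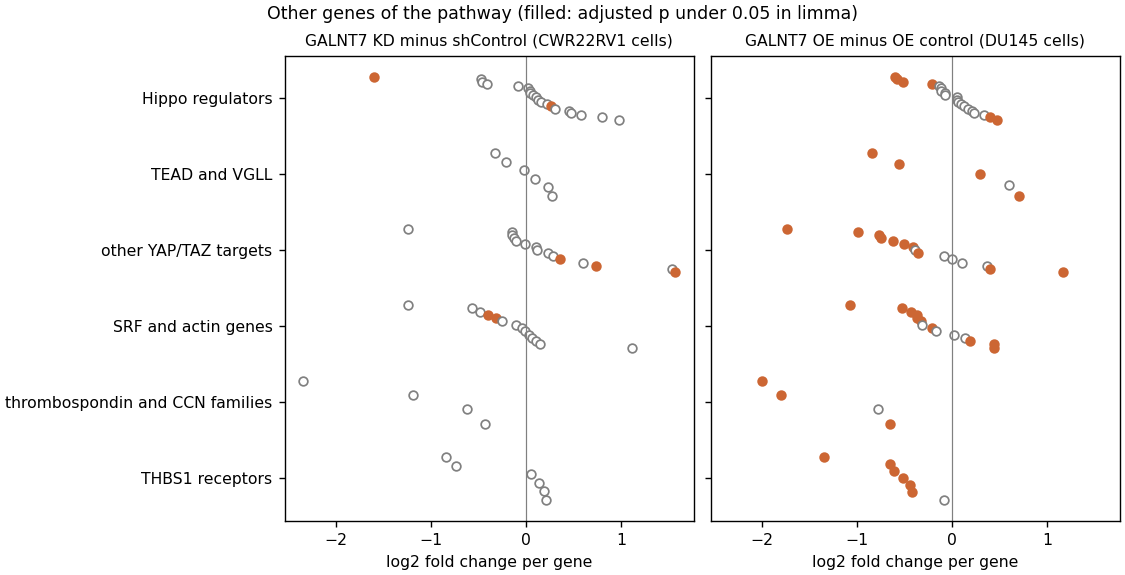
Log2 fold change of each tested gene of the 6 pathway lists in GALNT7 KD over shControl (left) and GALNT7 OE over OE control (right), 1 point per gene, filled where the limma adjusted p was under 0.05. Of the 65 genes tested in each line, 7 are filled on the left and 39 on the right, 30 of the latter below 0.

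Fewer list genes were called in GALNT7 KD cells in some fits with a library left out, and so were fewer of all genes. In place of 7, the count was 2 without shControl replicate 1, 2 without shControl replicate 3 and 1, that of IGFBP3, without GALNT7 KD replicate 1. Calls over all genes tested went from 1623 to 545, 671 and 525 in the same fits. Across the fits with any 1 library left out, the list count was 1 to 7. LUM, a matrix proteoglycan on a list of 5 fibroblast markers, rose with THBS1 in GALNT7 KD cells, from 225 ± 26.3 to 626 ± 45.6 normalised counts (SD, n = 3; limma adjusted p = 0.0016). The summed level of that list went from 271 to 346 in shControl to 705 to 786 in GALNT7 KD, with 1 of 5 called, and COL1A1 and COL1A2 were at 44.1 ± 17.1 and 3.28 ± 3.32 in shControl against 46.7 ± 10.7 and 10.7 ± 10.4 (SD, n = 3). DCN was at 12.4 ± 3.78 against 29.9 ± 9.61 (SD, n = 3), on 41 and 91 reads, without overlap, and did not pass the test. The groups overlapped for COL1A1, COL1A2 and PDGFRB. In DU145 cells LUM was at 0 in all 6 libraries and the list went from 303 to 430 in OE control to 66.5 to 163 in GALNT7 OE, with COL1A1 called lower. The part of such genes in the THBS1 result was not tested.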

How the data were processed

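RNA-sequencing libraries of polyadenylated RNA, made with a stranded kit, were analysed from 4 groups of 3. The authors deposited normalised counts per Ensembl gene, with each line in its own table. Per the labels and values, the signal is a read number over the size factor of its library. The submitters' processing notes name R 3.5.3, FastQC, Salmon, DESeq2 and hg38. The annotation release is not given in the sources used here. Names, positions and exonic lengths came from GENCODE 29, which held 94.4% of the 59424 identifiers. Values of a library are whole multiples of its smallest step, so that reads could be recovered for 100% of values, within 0.01 reads.

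The members and the gene lists were chosen with earlier results of these data known. Each line was fitted alone in R 4.3.3 with limma 3.58.1 (lmFit, then eBayes with trend) on the log2 of the normalised count plus 1, for genes whose mean over its 6 libraries reached 5. P-values were Benjamini-Hochberg adjusted over all genes tested, with a threshold of 0.05. Log2 fold changes on this scale understate the change of genes with few reads. Named genes were the members, GALNT7, the 5 genes nearest to THBS1 and genes of the lists past the threshold. Where more than 5 genes of a list passed, the 4 with the largest change and a mean of at least 50 were taken. Other genes were named after their values were seen: TEAD4, VGLL4, THBS3, THBS4, COMP and NOV where they did not pass, IGFBP3 in DU145 cells and the untested or uncalled genes given as background.

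Alternatives were other pseudocounts and filters, 75th percentile and quantile scaling, a replicate block, eBayes without trend, each library left out, and edgeR 4.0.16 and DESeq2 1.42.0 on recovered reads. The fits were tested on simulated counts. Replicates differed by more than sampling noise, so each library counted once. Promoter windows came from RefSeq on GRCh38.p14. The values of 1 marker gene are not reported here.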

Additional observations from a re-analysis of the deposited data

How the results depend on the processing

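The members were chosen with their behaviour in these libraries known, and the alternatives refit the same libraries. Counts of members that passed therefore describe the settings and are no support for the differences. With the settings used above, 9.06% of all genes tested were called in the knockdown and 43.5% in the overexpression. In the knockdown, CYR61, CTGF and THBS1 passed the threshold under all 16 alternatives, and YAP1 joined them with a pseudocount of 5, a filter at a mean of 20 and DESeq2. In the overexpression, 6 members passed after 75th percentile rescaling and 8 to 10 under the other alternatives. YAP1, AJUBA or LATS2 was lost where a library was left out: YAP1 and AJUBA without OE control replicate 1, YAP1 and LATS2 without OE control replicate 2, AJUBA without OE control replicate 3 or GALNT7 OE replicate 3, and YAP1 without GALNT7 OE replicate 1 or 2. No called value changed direction. The log2 fold change of CTGF in the knockdown was -2.99 with a pseudocount of 5, -4.23 in edgeR and -4.28 in DESeq2. The number of genes called in the knockdown was 1623 in limma, 1002 with the replicate block, 996 without the trend, 2666 in DESeq2 and 525 to 1332 with a library left out. The pathway lists had 7 genes called there, 14 in DESeq2 and 1 to 7 with a library left out. Of those 7, MAP4K4, WWC2 and MYOF lost their calls with the replicate block (limma adjusted p of 0.078, 0.063 and 0.059), and ACTB and ACTG1 with quantile normalisation (0.26 and 0.21). Of the 5 genes nearest to THBS1, 1 was shared under Pearson correlation and 4 under a mean of at least 20. The causes were not tested. The replicate numbers were not taken to pair the libraries. Deviations of same-numbered libraries correlated at 0.000626, 0.131 and 0.0241 in the knockdown and at 0.0406, 0.0410 and 0.0318 in the overexpression. In the knockdown, shControl replicate 1 correlated best with GALNT7 KD replicate 3 (0.123), and shControl replicates 2 and 3 with the library of the same number. In the overexpression every same-numbered pair was above all other pairs, of which the highest was at 0.00379. With the block 9 members were called in the overexpression, without YAP1. Depth limits ANKRD1, AXL and CTGF in CWR22RV1 cells, with 13, 12 and 9 reads in the GALNT7 KD libraries.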
